A study of Mus musculus with 10 samples.

Results

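Tuft cells of the thymus were compared with tuft cells of the small intestine (SI) across all genes, in thymic tuft libraries 1 to 4 against SI tuft libraries 2 to 4, which are 7 of the 10 libraries of the study. Of 43432 gene identifiers counted, 18224 had enough reads in these 7 libraries to be tested. Both groups came from naïve male mice of 12 weeks whose strain is given as C57BL6.Il25(Flare25/Flare25), with 1 mouse per library. Flare25 is a fluorescent reporter allele at the Il25 gene, and controls without it were not used here. Both groups were sorted as live (DAPI-), CD45-, EPCAM+ and Flare25+ cells, so each is the part of its epithelium in which Il25 is read out. The authors sorted 4 replicates per population and left out 1 SI tuft library after quality control. The other 3 libraries of the study, which are Flare25- epithelial cells of the SI, are used below only for levels set beside a result.

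Tuft cells are rare chemosensory cells of mucosal epithelia that depend on the transcription factor Pou2f3 and use the signalling cascade of taste cells. In the small intestine they sense metabolites of worms and protists and release interleukin 25 and leukotrienes, which call on innate lymphoid cells to make interleukin 13. In the thymus, cells with the same features lie in the medulla, where medullary epithelial cells show self-antigens on MHC class II to developing T cells. The comparison asks which genes the cells of both organs share and which belong to the organ.

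All levels below are CPM, counts scaled to a common library size, after TMM scaling, a correction for differences in RNA makeup. Fold changes are log2 of thymic over SI tuft cells, each with its standard error (SE) from edgeR's quasi-likelihood fit, and genes with a Benjamini-Hochberg adjusted p below 0.05 over all tested genes are the ones called higher or lower. The library kit marks no strand, so genes with overlapping exons cannot be told apart, and the levels of genes with such overlaps are uncertain to that extent. Among genes described below this holds for Dclk1, Avil, Il17rb, Ptgs1, Alox5ap, Il4ra, Gng13, Adora1, Ache, Lcp1, Krt5, Krt8, Krt10, Rfxank, Ctsl, Cd74, Cd274, Psme1, Irf7, Usp18, Ccl25, Hoxa3, Notch2, Dll1, Apoa4, Cyp2c29, Col15a1, Hopx, Cd3e and Fn1, and for those where an overlap is named. The libraries held 46846738 to 62268881 counts in SI tuft cells and 38659882 to 51153413 in thymic tuft cells. Thymic libraries were made from 1350 to 1900 cells and SI tuft libraries from 35000 to 36000. Between 14426 and 15503 genes reached 1 CPM in a thymic library, against 12496 to 12693 in an SI tuft library. The 50 most abundant genes took 15.8% to 16.9% of the counts in the thymic libraries and 37.1% to 46.0% in the SI tuft libraries. Log2 CPM correlated across genes with r of 0.964 to 0.974 between SI tuft libraries, 0.871 to 0.925 between thymic libraries and 0.349 to 0.413 between the groups. Organ, cell release (dithiothreitol and EDTA for the intestine, Liberase and DNase with a Percoll gradient for the thymus) and cell number differ together, so their parts in any difference cannot be told apart. In bulk samples, fewer cells of a type and less RNA per cell cannot be told apart either.

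Thymic libraries 1, 2 and 3 held low levels of genes abundant in Flare25- SI epithelium. Over 18 genes abundant in the epithelium and low in SI tuft cells, chosen without regard to the thymic libraries, the median level was 1.42%, 0.982% and 1.02% of the mean epithelial count in thymic libraries 1, 2 and 3 and 0.0984% in library 4. From 6 of these genes, chosen to be near 0 in library 4, the share was estimated as 0.876%, 0.948% and 0.914% of the counts of 1 epithelial library each, and its subtraction removed 1.51%, 1.27% and 1.07% of the counts of thymic libraries 1, 2 and 3. The origin of these counts is not given in the sources used here and was not tested, and transcripts of the thymic cells themselves could be part of what was subtracted. Zg16, a lectin of goblet cells, stood at 288, 208 and 179 CPM in thymic libraries 1 to 3 and at 1.47 CPM in library 4. Counts over lists of intestinal genes are therefore given below also with the share subtracted and with library 4 alone. In the other direction, Flare25- libraries held 0.505% to 0.916% of the counts of a thymic library, so that their levels of genes abundant in the thymus are upper values, and SI tuft libraries held at most 0.00944%.

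Of the 18224 genes, 5312 (29.1%) were higher and 3146 (17.3%) lower in thymic tuft cells, and 9766 were not called. All thymic libraries lay above all SI tuft libraries for 29.7% of the genes and below them for 22.6%. The median log2 fold change over all genes was 0.27. The excess of higher calls came from genes that passed the minimum of 0.213 CPM in the thymic group alone. A group passed with at least 3 libraries at the minimum, which is all 3 SI tuft but 3 of 4 thymic libraries. Among the 12530 genes past it in both groups, 2337 (18.7%) were higher and 2872 (22.9%) lower, with a median of -0.12. Another 4332 genes passed in thymic libraries alone, and 2975 of them were higher and 0 lower. Some of these had reads in part of the SI tuft libraries, such as Gnb3 at 3.40, 3.76 and 0.0515 CPM. Only 688 genes passed in SI tuft libraries alone, of which 274 were lower. The unlike demand on the 2 groups bears on all these numbers. Protein-coding genes made up 15349 of the tested genes, and 30.6% of them were higher and 18.6% lower. In the counts of gene lists that follow, "past the minimum in both groups" means this set of 12530 genes, to be read against its 18.7% and 22.9%. A list that entered mainly through thymic libraries leans to higher calls by that minimum, and for such a list the count over all its members is no support.

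**Figure D1:**
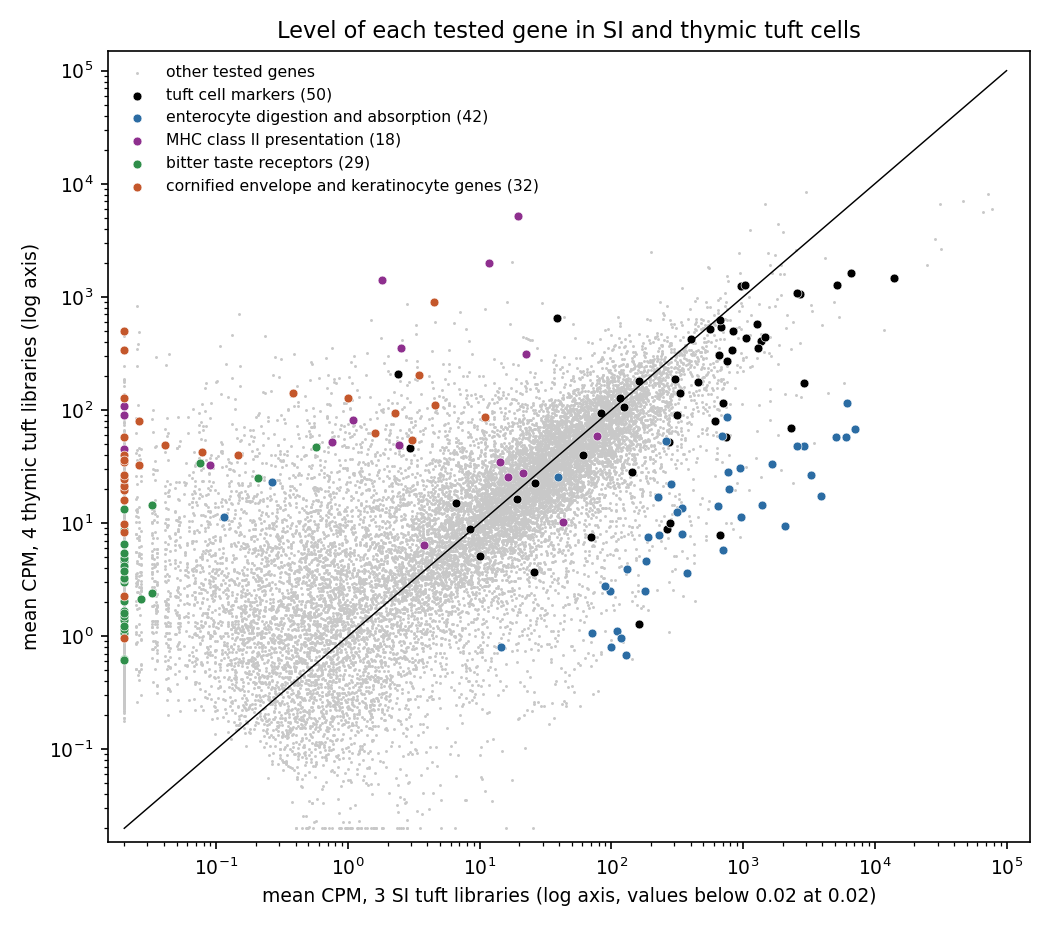
Mean CPM of each of the 18224 tested genes in the 3 SI tuft libraries (x axis) and the 4 thymic tuft libraries (y axis), both on log axes, with 5 gene lists in colour and the line of equal levels. Most tuft cell markers lie on or below the line, with Gnat3, Gnb3 and Gng13 above it, and most enterocyte genes lie far below it, with Fabp6 and Alpl above it. Most MHC class II genes and the bitter receptor and keratinocyte genes lie above it or at the left edge.

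Tuft cell markers were read in both organs. Of 50 measured tuft cell markers, 49 were past the minimum in both groups, and none was at 3 counts or fewer in all libraries of a group. That minimum is low and does not mark a tuft cell, since Flare25- SI epithelium held Trpm5, 1 of the markers, at 48.1 CPM. Their levels were lower in the thymus as a rule: 31 of 50 were lower, 3 higher and 16 not called, with a median log2 fold change of -1.24 against 0.27 over all genes. With the epithelial share subtracted the counts were the same, and with thymic library 4 alone 29 were lower and 5 higher. The markers summed to 50100 to 63300 CPM in SI tuft libraries, to 15700 to 19300 CPM in thymic tuft libraries and to 1380 to 1730 CPM in Flare25- SI epithelium. The tuft groups did not overlap in this sum, and the lowest thymic library lay above the highest Flare25- library. Not every marker followed the sum. Ffar3 had a mean of 7.91 CPM in thymic tuft cells and 7.14 CPM in Flare25- SI epithelium, and Trim38, given below, was lower in thymic tuft cells than there.

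Of 22 tested factors of the tuft cell lineage 8 were higher in the thymus, 5 lower and 9 not called, and 4 of the 9 are given here, picked for their narrow intervals near 0. Pou2f3 (chr9:43123939-43210369, GRCm38), the factor without which tuft cells do not form, stood at 693, 783 and 578 CPM in SI tuft libraries 2, 3 and 4 and at 493, 548, 554 and 569 CPM in thymic libraries 1 to 4. All thymic values lay below the lowest SI tuft value, and the difference was not called (log2 fold change -0.34, SE 0.15, adjusted p = 0.0885). Of the alternatives run, it was called in 1, with the SI epithelium libraries also in the fit, at -0.50 with an adjusted p of 0.0148. Spib, an Ets factor of tuft cells, had a mean of 1039 ± 109 CPM (SD, n = 3) in SI and 1281 ± 136 CPM (n = 4) in thymic tuft cells. Its log2 fold change of 0.30 was not called, but it was called in 2 of 20 alternatives, DESeq2 size factors and the DESeq2 Wald test. Sox9, a factor of progenitors and tuft cells, stood at 664 and 628 CPM and Runx1, whose exons overlap those of Gm26626, at 161 and 179 CPM. The 95% intervals of these 4 genes lay within 1 log2 unit of 0, as did those of 2233 genes in all.

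Other regulators of the lineage did move. Gfi1b, a zinc-finger repressor of tuft cells, stood at 311, 340 and 290 CPM in SI and 55.8, 118, 99.8 and 84.8 CPM in thymic tuft libraries. All thymic values were under those of the SI, and the log2 fold change was -1.81 (SE 0.24, adjusted p = 0.00018). Hmx2, a homeobox factor, fell from a mean of 70.4 to 7.47 CPM, while its neighbour in the family Hmx3 stood at 60.5 and 39.8 CPM and was not called. Ehf, an epithelial Ets factor, was higher at 735 to 860 CPM in the thymus against 356 to 426 CPM. Runx3 rose from 1.96 to 73.7 CPM. In all, 8 of 22 factors of the list were higher and 5 lower, with a median of 0.13.

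Il25 itself, the gene of the reporter, was uneven in the thymus. SI tuft libraries held 27.0, 28.7 and 23.4 CPM, and thymic libraries 36.8, 34.6, 9.22 and 9.79 CPM. Thymic libraries 1 and 2 were above all SI tuft libraries and libraries 3 and 4 below them, so the groups overlapped and no difference was called (adjusted p = 0.758). The 95% interval of the log2 fold change ran from -1.36 to 0.92, which leaves a 2-fold difference within it. With thymic library 4 alone, the log2 fold change of Il25 was -1.41, a value that holds nothing of the spread between thymic libraries. Epcam, the surface protein of the sort, fell from 1578 to 812 CPM, and Ptprc, which encodes the CD45 used to leave cells out, from 159 to 68.4 CPM.

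Several abundant tuft cell genes were lower in the thymus. Trpm5, the cation channel that ends the taste cascade and whose exons overlap those of Tssc4, stood at 5973, 5228 and 4404 CPM in SI and 1096, 1352, 1254 and 1348 CPM in thymic tuft libraries. The highest thymic value was below the lowest SI value, and the log2 fold change was -2.04 (SE 0.15, adjusted p = 3.32e-06). Flare25- SI epithelium held a mean of 48.1 CPM. Dclk1, a kinase used as the usual tuft cell stain, stood at 2903, 2364 and 2361 CPM against 1014, 1035, 953 and 1356 CPM, a log2 fold change of -1.22 (SE 0.16, adjusted p = 0.000179). Avil, an actin-bundling protein of the tuft, had a mean of 2699 CPM in SI and 1053 CPM in thymic tuft cells. Sh2d6, an adaptor that was the most abundant marker in SI tuft cells, fell from 13880 ± 2934 to 1461 ± 218 CPM.

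Other markers fell further. Trim38, a ubiquitin ligase, stood at 168, 174 and 144 CPM in SI and at 0.309, 2.25, 1.27 and 1.26 CPM in thymic tuft libraries, a log2 fold change of -6.99 (SE 0.54). Folr1, a folate receptor, fell from 265 to 8.95 CPM. Matk, a kinase that restrains Src kinases, fell from 2299 to 68.9 CPM, and Cd300lf, a surface receptor known as the entry receptor of mouse norovirus, from 743 to 57.8 CPM. In Flare25- SI epithelium Trim38 stood at 10.1, Matk at 22.9 and Cd300lf at 10.4 CPM.

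**Figure D2:**
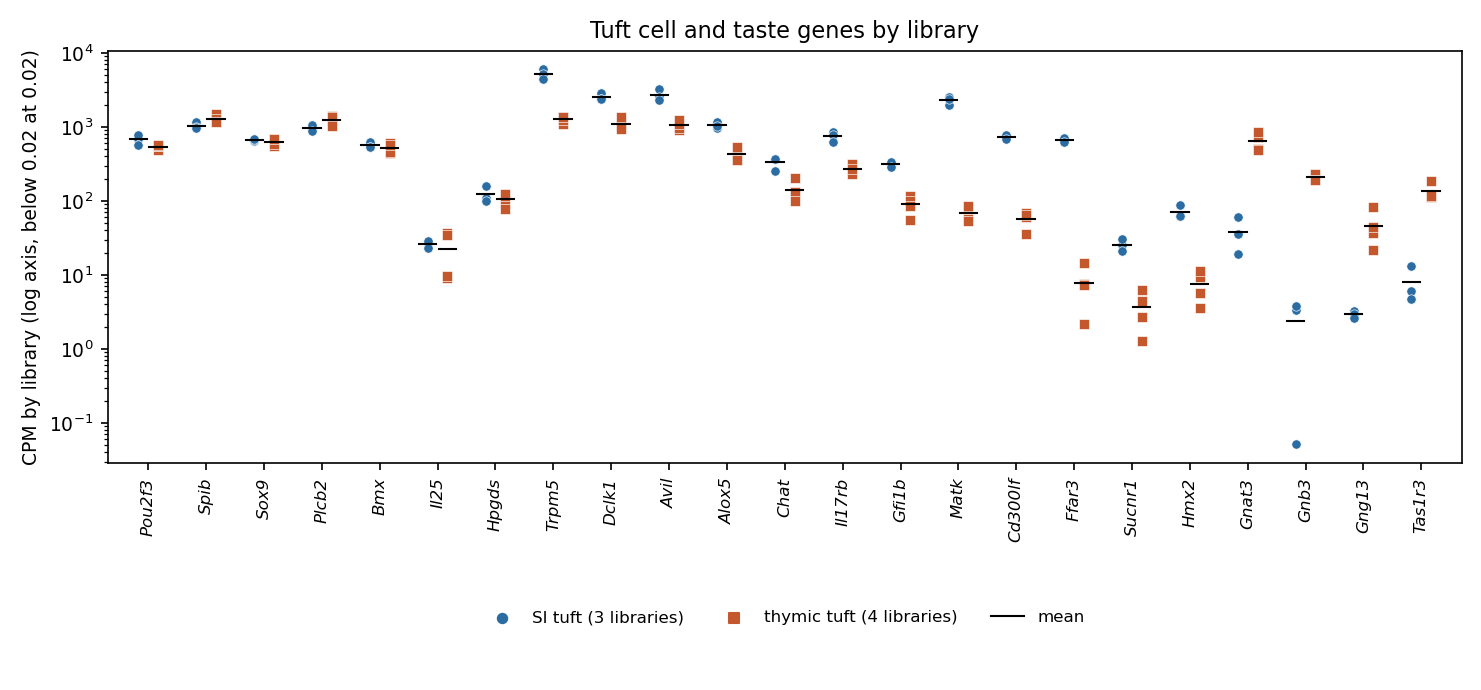
CPM in each library (log axis) of 23 tuft cell and taste genes, with SI tuft libraries as circles, thymic tuft libraries as squares and group means as bars. Pou2f3, Spib, Sox9, Plcb2, Bmx, Il25 and Hpgds were not called, the genes from Trpm5 to Hmx2 are lower in the thymus, and the 4 genes at the right are higher.

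Signalling adaptors and kinases best known from blood cells were among the most abundant tuft cell transcripts of the intestine and were mostly lower in the thymus. Of 28 tested members 14 were lower and 6 higher, with a median of -0.77, and past the minimum in both groups it was 14 and 6 of 27. Rac2, a small GTPase of blood cells, stood at 2047, 1491 and 1377 CPM against 267, 284, 341 and 304 CPM. All thymic values lay below the lowest SI tuft value, with an adjusted p of 3.1e-06. Vav1, an exchange factor that activates such GTPases, fell from 1299 to 355 CPM, and Plcg2, a phospholipase, from 708 to 156 CPM. Bmx, a Tec-family kinase, stood at 563 and 521 CPM (adjusted p = 0.606), and Pik3cg, a lipid kinase, stood at 368 and 335 CPM. Lcp1, the plastin of white blood cells that bundles actin, went the other way, with 11.7, 7.38 and 13.8 CPM in SI and 664, 873, 780 and 810 CPM in thymic tuft libraries (log2 fold change 6.16, SE 0.28).

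Genes of the taste cascade moved in both directions. Gnat3 encodes gustducin, the G protein alpha subunit of taste cells. It stood at 60.5, 35.7 and 19.4 CPM in SI and 510, 736, 488 and 851 CPM in thymic tuft libraries. No values overlapped, and the log2 fold change was 4.07 (SE 0.41, adjusted p = 2.96e-05). Its partner subunits followed, with Gnb3 at a mean of 2.40 and 208 CPM and Gng13 at 2.95 and 46.1 CPM. Plcb2, the phospholipase downstream of them, was abundant in both organs at 962 and 1258 CPM. Its log2 fold change of 0.39 was not called (adjusted p = 0.0619), and it was called in 6 of 20 alternatives, without thymic library 4 (0.0168) and with DESeq2 size factors (0.0276) among them, but not with upper quartile scaling (0.0789). Itpr3, the calcium channel that follows, stood at 154 and 110 CPM and was not called, and Trpm5 was lower as given above. Over the list, 9 of 19 members were higher and 3 lower with a median of 1.28, and past the minimum in both groups 4 and 3 of 12.

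Taste receptors were higher in part. Tas1r3, the shared subunit of the sweet and umami receptors, stood at 13.02, 6.15 and 4.69 CPM in SI and 115, 187, 120 and 115 CPM in thymic tuft libraries (log2 fold change 4.08, SE 0.40). Its exons overlap those of Dvl1. Tas1r1, the umami subunit, rose from 0.320 to 13.1 CPM, while Tas1r2, the sweet subunit, stood at 0.639 and 0.763 CPM and was not called (adjusted p = 0.922). Calhm3, a subunit of the channel through which taste cells release ATP, rose from 7.36 to 45.6 CPM, and Rgs21, a regulator of G proteins known from taste cells, from 0.204 to 45.2 CPM.

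Bitter taste receptors were read in thymic tuft cells and hardly at all in SI tuft cells. Their 35 genes summed to 213, 248, 148 and 204 CPM in thymic libraries 1 to 4 and to 1.47, 1.52 and 0 CPM in SI tuft libraries 2 to 4. Of 29 that could be tested all passed the minimum through thymic libraries alone, so that their 29 calls lean on that minimum and are not support. The levels themselves show the range. Tas2r108 was the most abundant, at 47.3, 55.1, 43.6 and 41.3 CPM in thymic libraries and 0.880, 0.826 and 0 CPM in SI tuft libraries. Tas2r138 stood at 26.1 to 43.1 CPM, Tas2r137 at 12.5 to 37.1 CPM and Tas2r118 at 8.77 to 19.7 CPM in the thymus. At the other end, Tas2r131 and Tas2r124 had thymic means of 0.619 and 0.634 CPM. In SI tuft cells 24 of the 29 were at 3 counts or fewer in each library, and 19 were at 0 in all 3. For those 19, with 3 counts per library as the floor of the SI value, the thymic mean was at least 7.75-fold to at least 165-fold higher, the last being Tas2r113. The median log2 fold change of the 29 was 5.55 with these genes at their bounds. With thymic library 4 alone 22 of 27 were called.

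Windows around the RefSeq gene starts of bitter receptors are shown because these genes move together and because Pou2f3 belongs to a family that binds the octamer ATGCAAAT. RefSeq windows (GRCm38.p6) from 250 bases before to 50 after the gene start were found for 31 of the 35 genes, and 7 of them (22.6%) held the octamer on either strand, against 1.97% of 27025 genes (1.74% of 32851 windows). Of tuft cell markers with a window, 5 of 40 held it (12.5%), Hpgds and Sucnr1 among them. The share was 2.12% among genes higher in the thymus and 1.96% among those lower. The octamer, read here on the reverse strand as ATTTGCAT, is in capitals in the windows of Tas2r108 (chr6:40493342-40493641, plus strand) and Tas2r118 (chr6:23970011-23970310, minus strand), which are written 5′ to 3′ along the gene.
Tas2r108: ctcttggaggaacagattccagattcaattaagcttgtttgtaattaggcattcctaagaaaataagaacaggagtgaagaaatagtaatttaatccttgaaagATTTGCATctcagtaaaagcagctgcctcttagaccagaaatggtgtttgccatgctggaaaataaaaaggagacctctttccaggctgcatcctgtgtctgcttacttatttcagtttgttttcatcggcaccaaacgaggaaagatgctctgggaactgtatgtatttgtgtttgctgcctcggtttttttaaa
Tas2r118: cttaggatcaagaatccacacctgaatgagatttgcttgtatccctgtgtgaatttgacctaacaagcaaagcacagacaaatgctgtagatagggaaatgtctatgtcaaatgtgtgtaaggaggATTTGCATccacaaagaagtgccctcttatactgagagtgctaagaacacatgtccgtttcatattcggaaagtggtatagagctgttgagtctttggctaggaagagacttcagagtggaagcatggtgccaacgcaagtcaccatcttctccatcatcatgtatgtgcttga
Counted from the RefSeq gene start, the octamer began at -146 in Tas2r108 and at -124 in Tas2r118. In both windows the last 50 bases begin with ATG, so this start may be the start codon rather than the start of transcription. In GENCODE, Tas2r108 starts further upstream, at chr6:40493529. The windows of these genes can thus hold transcribed bases, and the distances are not counted from a known transcription start. A match of letters is a description and shows neither binding nor a cause.

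Receptors for metabolites moved in both directions. Ffar3, a receptor for short-chain fatty acids, stood at 667, 718 and 632 CPM in SI and 2.15, 7.59, 7.30 and 14.6 CPM in thymic tuft libraries, a log2 fold change of -6.41 (SE 0.54, adjusted p = 8.85e-06). Sucnr1, the succinate receptor by which SI tuft cells sense protists, fell from 25.7 ± 4.67 (SD, n = 3) to 3.67 ± 2.12 CPM (n = 4). Adora1, an adenosine receptor, fell from 89.9 to 17.6 CPM, while Adora2a, another, rose from 0.146 to 17.7 CPM. Also higher in the thymus were Casr, the calcium-sensing receptor, with a rise from 3.42 to 45.6 CPM, and Hcar2, the receptor for niacin and ketone bodies, with 0.111 and 31.1 CPM. In all, 4 of 18 tested members were higher and 6 lower with a median of -0.84, and past the minimum in both groups 1 and 5 of 12.

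Genes for lipid mediators moved in both directions, with synthesis genes of the leukotriene branch lower. Alox5, the lipoxygenase that starts leukotriene synthesis, stood at 1154, 955 and 1037 CPM in SI and 354, 353, 483 and 539 CPM in thymic tuft libraries (log2 fold change -1.28, SE 0.19, adjusted p = 0.000333). Its helper Alox5ap fell from 658 to 305 CPM. Ltc4s, which makes leukotriene C4 and whose exons overlap those of Gm26542, fell from 143 to 28.5 CPM, with library 1 lowest at 16.0 CPM. Abcc1, the exporter of leukotriene C4, rose from 22.5 to 146 CPM (log2 fold change 2.70, adjusted p = 4.09e-06). The cyclooxygenases moved in opposite directions. Ptgs1 fell from 838 to 496 CPM, and Ptgs2, the inducible form, stood at 30.3, 21.3 and 18.4 CPM against 377, 436, 422 and 474 CPM (log2 fold change 4.19, SE 0.23, adjusted p = 7.54e-07). Ptges, the synthase of prostaglandin E2, rose from 0.0835 to 71.5 CPM, while Hpgds, that of prostaglandin D2, stood at 124 and 106 CPM (adjusted p = 0.466). Alox15 rose from 0.930 to 116 CPM. Of the 25 genes of the list 10 were higher and 8 lower with a median of 0.18, and past the minimum in both groups 2 and 8 of 14.

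In the cytokine circuit around Il25 the difference was greatest for Il13. Il13, in the intestine a product of lymphoid cells, stood at 185, 216, 256 and 329 CPM in thymic libraries and at 0.0489, 0.0266 and 0 CPM in SI tuft libraries. Il4ra, a subunit of its receptor, had means of 90.5 CPM in SI and 236 CPM in thymic tuft cells (log2 fold change 1.38, SE 0.18), and Il13ra1, the other subunit, stood at 82.9 and 93.4 CPM. Il17rb, the interleukin 25 receptor, fell from 758 to 271 CPM. Il10, which is in none of the lists and was looked at after its values were seen, stood at 62.6, 52.3, 65.9 and 76.9 CPM in the thymus and at 0.220, 0 and 0 CPM in the intestine. Lymphocyte markers are given further on, and their part in these values was not tested. Of 18 members 8 were higher and 2 lower with a median of 0.71, and past the minimum in both groups 3 and 2 of 11.

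Both sets of tuft cells held the gene for acetylcholine synthesis, and the enzymes that break it down moved in opposite directions. Chat, the acetylcholine synthase, stood at 369, 372 and 254 CPM against 130, 134, 99.8 and 207 CPM (log2 fold change -1.22, SE 0.25, adjusted p = 0.00298). Ache, acetylcholinesterase, rose from 3.33 to 238 CPM, with thymic values of 284, 286, 231 and 154 CPM. Bche, butyrylcholinesterase, fell from 335 to 34.1 CPM. Syt1, a calcium sensor of vesicle release, rose from 2.24 to 145 CPM, and Vamp2, a vesicle protein, from 124 to 360 CPM. Of 17 tested cholinergic and neuronal genes 7 were higher and 4 lower, with a median of 0.32, and past the minimum in both groups 5 and 4 of 14.

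The apical cytoskeleton of the intestinal cell was reduced. Of 29 genes of actin bundles and the brush border 21 were lower and 5 higher, with a median of -1.72. With the epithelial share subtracted these counts were the same, and with library 4 alone 20 of 30 were lower and 4 higher. Vil1, villin, stood at 2413, 2454 and 2659 CPM in SI and 103, 189, 149 and 101.1 CPM in thymic tuft libraries (log2 fold change -4.21, SE 0.24, adjusted p = 8.26e-07). Cdhr5, a cadherin that links microvilli, fell from 11650 to 508 CPM and its partner Cdhr2 from 2772 to 130 CPM. Actb stood at 2532 and 2608 CPM and was not called (adjusted p = 0.833). Fscn1, fascin, an actin bundler of dendritic cells, stood at 110, 122, 83.9 and 144 CPM in the thymus and at 0.0489, 0 and 0 CPM in the SI, and Pls3, another plastin, rose from 0.946 to 63.2 CPM.

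Keratins differed by class. Those of simple epithelia fell, with Krt18 at 16060, 14060 and 14400 CPM in SI and 1172, 1623, 1608 and 1343 CPM in thymic tuft libraries (log2 fold change -3.37, SE 0.15, adjusted p = 2.54e-07). Krt8 fell from 1383 to 420 CPM and Krt20 from 629 to 45.7 CPM. Those of stratified epithelia were read in the thymus. Krt5, a keratin of basal cells, stood at 737, 620, 740 and 702 CPM there and at 0.391, 0.0266 and 0.0258 CPM in the SI. Krt17 had a thymic mean of 459 CPM and Krt10 of 204 CPM. Krt14, the partner of Krt5, was at 0 in every SI tuft library and at 64.6 to 106 CPM in the thymus, which is at least 1080-fold higher over a floor of 3 counts per library. Only 8 of the 38 tested keratins were past the minimum in both groups, 3 of them higher and 5 lower. Among claudins of tight junctions 6 of 15 were higher and 7 lower, and past the minimum in both groups 1 and 6 of 7. Cldn15 fell from 296 to 5.10 CPM and Cldn4 rose from 24.1 to 415 CPM, highest in thymic library 4 at 755 CPM.

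Genes of antigen presentation on MHC class II were higher in the thymus. Of 18 genes 13 were higher and 1 lower, with a median of 6.15, and past the minimum in both groups 8 and 1 of 13. H2-Ab1 (chr17:34257689-34269419, GRCm38) encodes the beta chain of the class II molecule. It stood at 21.8, 3.41 and 10.3 CPM in SI and 1612, 2092, 2075 and 2147 CPM in thymic tuft libraries, a log2 fold change of 7.38 (SE 0.62, adjusted p = 9.03e-06). Its alpha chain H2-Aa stood at 3.84, 0.746 and 0.850 CPM against 1192, 1510, 1504 and 1393 CPM, and H2-Eb1, the beta chain of the second isotype, at 2.15, 2.90 and 2.50 CPM against 304, 404, 336 and 362 CPM. Cd74, the invariant chain that guides class II molecules, stood at 39.6, 7.40 and 11.1 CPM against 4252, 4568, 4985 and 6795 CPM. In none of these genes did the groups overlap.

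The regulators and loading factors of class II followed in part. Ciita, the coactivator that class II genes need, stood at 1.49, 0.772 and 0 CPM in SI and 68.3, 61.8, 50.1 and 29.0 CPM in thymic tuft libraries (log2 fold change 6.11, SE 0.98, adjusted p = 0.000661). Its exons overlap those of Dexi. H2-DMb1, a chain of the peptide loader, rose from 1.10 to 80.7 CPM, and H2-Oa, a chain of its inhibitor whose exons overlap those of BC051537, stood at 66.2 to 134 CPM against 0.0489, 0 and 0 CPM. Ctsl, the cathepsin that cuts the invariant chain in the thymus, rose from 22.6 to 314 CPM, while Ctss, its counterpart in blood cells, stood at 21.2 and 27.6 CPM and was not called. Rfxank, a subunit of the RFX complex, fell from 42.6 to 10.3 CPM and Rfx5 rose from 14.3 to 34.8 CPM.

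Class II promoters are shown because their genes rose together with Ciita, which acts through a fixed set of short elements, the last of which is a CCAAT box (ATTGG on the reverse strand). Windows were found for 8 of the 9 H2 class II genes, H2-Ab1 being the one without, and all 8 held ATTGG on either strand in at least 1 window (8 of 9 windows, or 88.9%), against 41.1% of all genes with a window (37.4% of all windows). Matches are in capitals in H2-Aa (chr17:34287774-34288073, minus strand, match at -48) and H2-Eb1 (chr17:34305617-34305916, plus strand, 2 matches, 1 on each strand).
H2-Aa: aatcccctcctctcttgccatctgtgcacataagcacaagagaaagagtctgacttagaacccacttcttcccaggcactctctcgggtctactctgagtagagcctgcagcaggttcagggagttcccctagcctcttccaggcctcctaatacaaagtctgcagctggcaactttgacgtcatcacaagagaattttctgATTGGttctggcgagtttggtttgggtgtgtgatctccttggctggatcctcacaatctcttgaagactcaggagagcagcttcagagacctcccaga
H2-Eb1: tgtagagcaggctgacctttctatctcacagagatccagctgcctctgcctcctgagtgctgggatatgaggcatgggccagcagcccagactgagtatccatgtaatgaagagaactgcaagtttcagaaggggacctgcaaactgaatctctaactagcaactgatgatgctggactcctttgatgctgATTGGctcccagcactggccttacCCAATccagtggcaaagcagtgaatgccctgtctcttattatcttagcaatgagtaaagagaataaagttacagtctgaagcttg
The motif is short and common, and its share was 40.7% among genes higher and 43.1% among genes lower in the thymus. It is 1 of the 16 motifs searched. The longer form ATTGGNC was in 25% of the H2 class II genes with a window against 13.4% of all genes. TGACGT, another of the 16, was in 12.5% against 8.37%. Other motifs of the 16 also differed in these few genes, both ways. CAAAG was in 87.5% against 57.4% and TATAAA in 0% against 15.7%. The match is thus not particular to ATTGG, and it shows neither binding nor a cause.

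Ligands that T cells read beside the peptide rose as well. Cd80, which engages CD28, was at 0 in all SI tuft libraries and at 84.3, 85.2, 78.0 and 63.1 CPM in the thymus, at least 972-fold higher. Cd274, the ligand of PD-1, stood at 39.3, 20.2 and 14.7 CPM against 385, 362, 365 and 563 CPM (log2 fold change 4.08, SE 0.37). Icosl, the ligand of ICOS, rose from 10.1 to 134 CPM. Lgals9, a galectin, fell from 966 to 318 CPM. Over the list 12 of 17 were higher and 1 lower with a median of 4.08, and past the minimum in both groups 4 and 1 of 9.

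Class I presentation started from a high level and rose less. B2m, the light chain, stood at 3386, 2563 and 3023 CPM in SI and 7483, 9212, 7979 and 9215 CPM in thymic tuft libraries (log2 fold change 1.502, SE 0.15, adjusted p = 2.5e-05). H2-K1, a classical heavy chain, rose from 1837 to 4414 CPM. The non-classical chain H2-Q7 rose from 8.67 to 311 CPM and H2-Q6 from 22.3 to 432 CPM, and H2-T3, the chain that binds CD8 on lymphocytes of the gut lining, went the other way with 73.3, 98.1 and 132 CPM in SI and 0.214 to 1.21 CPM in the thymus. H2 genes are a family of near copies, so reads could be split between them. Nlrc5, the coactivator of class I genes, rose from 15.7 to 93.9 CPM. Of 23 genes 15 were higher and 3 lower with a median of 1.20, and the 3 were subunits of the immunoproteasome and its cap (Psmb10, Psme1 and Psme2).

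Genes that interferon induces were split, with 8 of 34 higher, 9 lower and a median of -0.41. Ifitm3, a membrane protein that blocks viral entry, stood at 24.99, 31.6 and 32.5 CPM in SI and 703, 1052, 850 and 905 CPM in thymic tuft libraries (log2 fold change 4.89, SE 0.22). Oas2, a sensor of double-stranded RNA, stood at 799, 797 and 803 CPM against 36.5, 68.3, 89.7 and 45.9 CPM (log2 fold change -3.73, SE 0.29). Irf7 fell from 494 to 180 CPM and Usp18 rose from 12.9 to 82.4 CPM.

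Chemokines formed another set read mainly in the thymus. Cxcl10, which draws T cells through CXCR3 and whose exons overlap those of Art3, stood at 6.23, 1.23 and 0.206 CPM in SI and 352, 459, 311 and 536 CPM in thymic tuft libraries (log2 fold change 7.33, SE 0.96). Ccl22, a ligand of CCR4, stood at 0, 0.0266 and 0.0773 CPM against 174, 218, 593 and 200 CPM, with thymic library 3 apart from the other thymic libraries. Cxcl2, which draws neutrophils, rose from 0.600 to 192 CPM. Ccl25, the chemokine of both the thymus and the small intestine, was high on both sides at 403 and 272 CPM, and its call as lower (adjusted p = 0.044) was lost when any 1 library other than thymic library 3 was left out. Of 30 tested chemokines 23 were higher and 3 lower with a median of 5.65 (5.45 with genes at 0 in SI tuft cells at their bounds), and past the minimum in both groups 7 and 2 of 11.

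In the TNF family 17 of 30 tested genes were higher and none lower, with a median of 2.86 (2.80 at the bounds), and past the minimum in both groups 9 of 19. Tnfrsf11a, which encodes RANK, the receptor through which medullary epithelium matures, stood at 25.5, 33.1 and 46.5 CPM in SI and 219, 126, 199 and 82.1 CPM in thymic tuft libraries (log2 fold change 2.16, SE 0.36). Tnfrsf8 (CD30) rose from 5.77 to 169 CPM. Ltbr, another receptor that medullary epithelium uses, stood in the list of thymic genes and fell from 95.3 to 44.7 CPM.

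Genes of thymic epithelium were read in every thymic library. Aire, the factor that lets medullary cells express tissue antigens and whose exons overlap those of Dnmt3l, stood at 264, 266, 277 and 178 CPM in thymic and 0.196, 0.0533 and 0.206 CPM in SI tuft libraries (log2 fold change 10.63, SE 0.42, adjusted p = 1.21e-07). Fezf2, a second factor of that kind, stood at 333, 326, 326 and 269 CPM against 0, 0.107 and 0.0258 CPM. Foxn1, the master factor of thymic epithelium, stood at 209, 220, 151 and 165 CPM, and Trp63, the p63 of stratified and thymic epithelium, at 125, 112, 143 and 140 CPM. Of 23 tested medullary genes 21 were higher and 2 lower with a median of 8.71 (7.34 at the bounds), but only 8 were past the minimum in both groups, 6 of them higher. Of 13 cortical genes 8 were higher and 3 lower with a median of 3.79, and past the minimum in both groups 3 and 3 of 8. Tbata, a gene of cortical cells, had means of 0.279 CPM in SI and 296 CPM in thymic tuft cells, and Enpep, a peptidase of cortical cells and enterocytes, fell from 229.5 to 7.87 CPM. The other lower genes were Kitl, a growth factor, and Ccl25, a chemokine. Prss16, a protease of cortical cells, stood at 33.0, 3.41, 39.7 and 29.8 CPM in the thymic libraries, lowest in library 2, and Psmb11, the subunit of the thymoproteasome, had a mean of 2.66 CPM. Whether tuft cells or other thymic epithelial cells in the sort held these RNAs was not tested, since the libraries hold no single cells.

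Factors that pattern the pharyngeal pouches, from which the thymus forms, were higher in 14 and lower in 2 of 18, but only 4 were past the minimum in both groups, 2 each way. Eya1 stood at 314, 363, 293 and 282 CPM in thymic and 0.367, 0.533 and 0.258 CPM in SI tuft libraries (log2 fold change 9.66, SE 0.32). Pax1, a paired-box factor whose exons overlap those of AI646519, stood at 58.7 to 86.1 CPM against 0, 0.0266 and 0 CPM. Hoxa3, a Hox gene the pouch needs, was lower rather than higher, at 8.77, 11.9 and 13.7 CPM in SI and 3.53, 4.84, 1.72 and 4.68 CPM in thymic tuft libraries. Its call (log2 fold change -1.63, adjusted p = 0.0274) was lost without thymic library 1 (0.0588) or 3 (0.0508) and without any 1 SI tuft library. Of Hox genes 10 of 28 were higher and 4 lower, and past the minimum in both groups none of 7 was higher.

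Genes of the cornified skin surface reached high levels in the thymus. All 32 tested members were higher, with a median of 11.14 (8.08 at the bounds), but 24 of them passed the minimum through thymic libraries alone. The 8 past it in both groups were higher too, with a median of 5.32. Sprr1a, a protein of the cornified envelope, stood at 3.79, 4.34 and 5.38 CPM in SI and 663, 1157, 628 and 1150 CPM in thymic tuft libraries (log2 fold change 7.64, SE 0.36, adjusted p = 3.09e-07). Spink5, a protease inhibitor of skin, stood at 456, 420, 560 and 550 CPM against 0.0244, 0 and 0 CPM. Krtdap, a keratinocyte protein, stood at 263 to 377 CPM against 0 in each SI tuft library, at least 4207-fold higher and the largest such bound in the data.

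**Figure D3:**
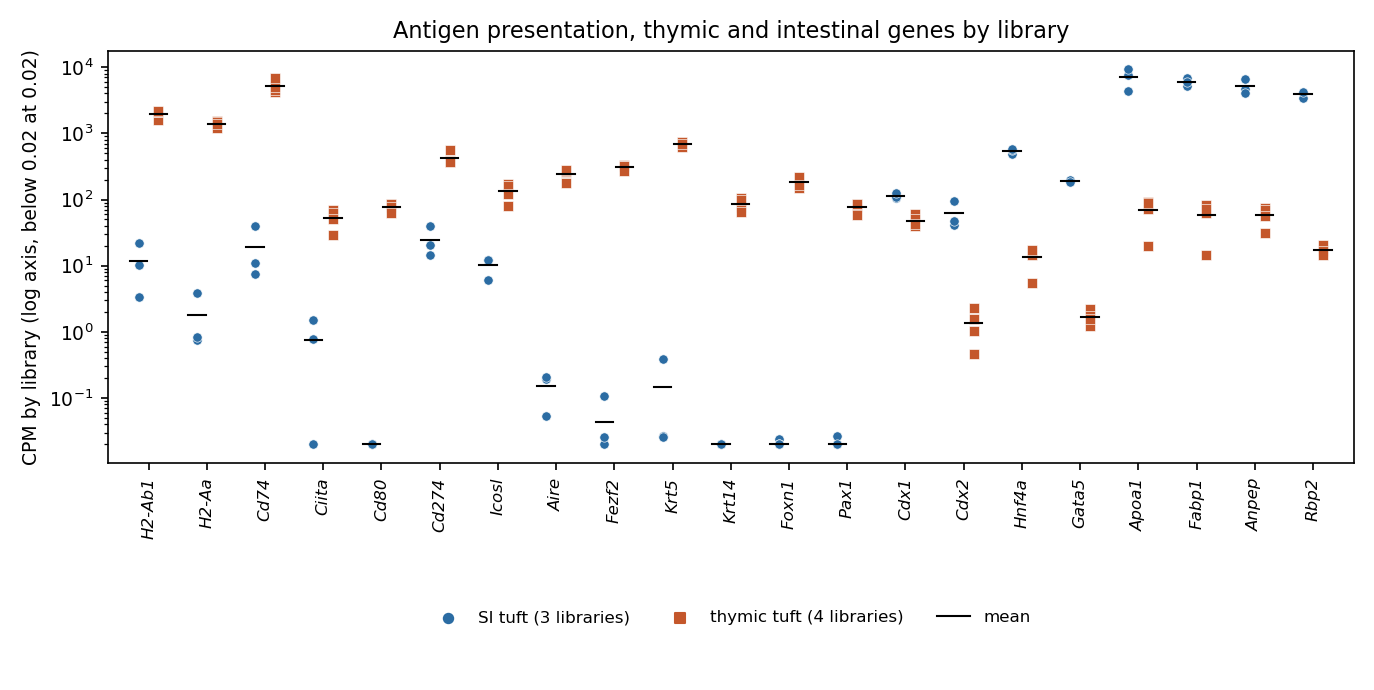
CPM in each library (log axis, values under 0.02 drawn at 0.02) of antigen presentation, thymic and intestinal genes, with SI tuft libraries as circles, thymic tuft libraries as squares and group means as bars. H2-Ab1 to Pax1 are higher in the thymus and Cdx1 to Rbp2 lower, Cdx1 by the smallest step.

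Some genes were read in thymic libraries alone. Of protein-coding genes, 34 had at least 50 CPM in every thymic library and 3 counts or fewer in every SI tuft library. The reverse count was 0, but counts of the epithelial share in thymic libraries 1 to 3 can keep an intestinal gene from meeting it, so the counts are not compared. Beside those named above they held Alox12e, a lipoxygenase of skin (177, 250, 300 and 256 CPM, at least 3074-fold higher), and Serpinb2, a protease inhibitor whose exons overlap those of Serpinb10 (at least 2322-fold higher). Csn2, the milk protein beta-casein, stood at 438, 422, 540 and 418 CPM in the thymus and 0, 0.0266 and 0 CPM in the SI. Gp2, a receptor of microfold cells, had a mean of 386 CPM, Skint7, of a family that selects gamma delta T cells, of 84.4 CPM, and Ccl11, the eosinophil chemokine, of 129 CPM. Irf4, a factor of lymphocytes and of some thymic cells, stood at 99.2 to 111 CPM, at least 1347-fold higher. Of 31 tested genes known as tissue-restricted antigens 21 were higher and 3 lower, the last being Reg3a, Reg3b and Spink1, and past the minimum in both groups 4 and 3 of 12.

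The transcription factors of intestinal identity were lower, but not all of them. Of 28 tested 20 were lower and 4 higher, with a median of -3.27, and past the minimum in both groups 19 and 4 of 27. With the share subtracted 19 were lower and 4 higher, and with library 4 alone 21 and 3. Cdx2, the homeobox factor that sets intestinal identity, stood at 96.6, 41.6 and 47.3 CPM in SI and 2.29, 1.59, 1.02 and 0.470 CPM in thymic tuft libraries (log2 fold change -5.52, SE 0.57, adjusted p = 3.32e-05). Its relative Cdx1 fell less, from 112 to 48.0 CPM (log2 fold change -1.22, SE 0.20), and its thymic mean was near the 52.9 CPM of Flare25- SI epithelium. Hnf4a, a nuclear receptor of gut and liver, stood at 484, 561 and 575 CPM against 16.2, 14.7, 17.3 and 5.49 CPM, without overlap. Gata5, a zinc-finger factor of the gut, stood at 190, 195 and 186 CPM against 1.24, 2.21, 1.75 and 1.58 CPM. Klf4, shared by gut and skin, was among the 4 higher, at 412 against 250 CPM, as were Foxa1 and Prdm1.

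Enterocyte genes had the lowest median of the 44 lists. Of 42 genes of digestion and absorption 39 were lower and 2 higher, with a median of -5.48, and past the minimum in both groups 39 and 0 of 40. With the epithelial share subtracted the counts were the same, and with thymic library 4 alone 40 were lower and 2 higher. Rbp2, the retinol carrier of the gut, stood at 4029, 3448 and 4229 CPM in SI and 17.4, 20.6, 16.9 and 14.7 CPM in thymic tuft libraries (log2 fold change -7.81, SE 0.19, adjusted p = 3.39e-08). Apoa1, an apolipoprotein, stood at 4335, 7629 and 9211 CPM against 91.9, 72.7, 89.2 and 19.8 CPM. Alpi, intestinal alkaline phosphatase, stood at 2466, 1815 and 1911 CPM against 14.7, 11.4, 10.1 and 1.47 CPM, lowest in library 4. The 2 higher genes were Fabp6, the bile acid carrier of the ileum, with 0.266 and 23.2 CPM, and Alpl, the other alkaline phosphatase, with 0.114 and 11.3 CPM.

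These genes are markers of another cell type, and SI tuft libraries held more of them in sum than the epithelium around, without overlap. The list summed to 48500 to 54900 CPM in SI tuft libraries, 718 to 1110 CPM in thymic tuft libraries and 32400 to 34500 CPM in Flare25- SI epithelium. The 16 goblet cell genes gave another order, with 8220 to 8750 CPM in SI tuft, 1940 to 3280 CPM in thymic tuft and 121000 to 131000 CPM in Flare25- libraries. The part of enterocytes in the sort in these levels was not tested.

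Promoters of enterocyte genes are shown because their genes fell together with Hnf4a and Hnf4g, nuclear receptors whose binding element holds CAAAGTNCA, with N any base. Windows were found for 35 of the 42 genes and 6 of them (17.1%) held it on either strand, against 1.64% of all genes with a window (1.41% of all windows). Those were Alpi, Apoa4, Cyp2c65, Cyp3a11, Fabp2 and Rbp2. Among genes with a window the share was 2.48% of those lower, 1.34% of those higher and 1.27% of those not called. Others of the 16 motifs searched also differed in this list, both ways. TATAAA was in 42.9% of its genes against 15.7% of all genes, TTTATNG in 37.1% against 12.5% and TGACGT in 5.71% against 8.37%. Matches are in capitals in Apoa4 (chr9:46240594-46240893, plus strand, at -182) and Fabp2 (chr3:122894822-122895121, plus strand, at -137).
Apoa4: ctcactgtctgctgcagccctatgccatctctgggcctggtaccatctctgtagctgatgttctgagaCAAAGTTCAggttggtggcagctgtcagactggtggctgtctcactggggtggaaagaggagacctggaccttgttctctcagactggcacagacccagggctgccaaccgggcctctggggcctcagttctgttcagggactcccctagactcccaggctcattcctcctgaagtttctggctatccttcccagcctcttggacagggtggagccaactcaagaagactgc
Fabp2: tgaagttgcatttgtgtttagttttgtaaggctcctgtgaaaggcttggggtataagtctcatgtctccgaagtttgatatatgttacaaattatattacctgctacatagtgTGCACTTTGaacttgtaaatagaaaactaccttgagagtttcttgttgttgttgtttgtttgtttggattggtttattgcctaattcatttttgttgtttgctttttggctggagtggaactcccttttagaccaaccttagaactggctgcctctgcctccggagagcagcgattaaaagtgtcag
Apoa4, a lipid carrier of chylomicrons, stood at 5029, 6054 and 7398 CPM in SI and 114, 151, 152 and 47.5 CPM in thymic tuft libraries, and Fabp2, the intestinal fatty acid carrier, at 3509, 3108 and 3220 CPM against 33.0, 28.0, 28.4 and 16.6 CPM.

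The 12 largest falls among abundant genes were mostly of the same kind. Cyp2b10, a cytochrome P450 that clears drugs, stood at 234, 303 and 280 CPM in SI and 1.47, 1.53, 1.16 and 0.171 CPM in thymic tuft libraries (log2 fold change -7.96, SE 0.58), lowest in library 4. It was -12.13 with the share subtracted and -10.60 with library 4 alone, where all 12 stayed lower and Slc5a11 had the smallest fall (-6.64). With the share subtracted, the falls of Mlip and Smpx kept their size (-7.86 and -7.89), and those of the 9 genes named next grew, so the order among the 12 depends on the share. Cyp2c66, Cyp2c29, Rbp2, Alpi, Ggt1, the sugar carriers Slc2a2 and Slc5a11, Cgref1 and H2-T3 were these, and Cyp2c genes have near copies. Mlip and Smpx, both known from muscle, were not enterocyte genes. Mlip stood at 70.1, 48.9 and 53.6 CPM in SI tuft and 0.200, 0.248, 0.341 and 0.171 CPM in thymic tuft libraries, and at a mean of 0.657 CPM in Flare25- SI epithelium, and Smpx had means of 78.5 CPM in SI tuft, 0.330 CPM in thymic tuft and 1.70 CPM in Flare25- libraries. Both were thus near absent from both thymic tuft cells and the intestinal cells outside the gate. Of 46 tested P450 genes 26 were lower and 9 higher, and past the minimum in both groups 20 and 0 of 23. With the share subtracted 26 of 46 were lower and 9 higher, and with library 4 alone 23 and 7 of 53. Cyp2g1, a P450 of the olfactory lining, was the most abundant of the 9, at 315 to 477 CPM against 0 to 0.269 CPM.

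Secretory lineage genes depend on the epithelial share in thymic libraries 1 to 3. As deposited, 4 of 16 goblet cell genes were lower and 1 higher, 8 and 1 with the share subtracted and 10 and 1 with library 4 alone. Of Paneth cell genes 2 were lower and 3 higher of 16, then 6 and 3 of 14, and 6 and 1 of 17. Of enteroendocrine genes 3 were lower and 6 higher of 26, then 6 and 6 of 26, and 9 and 5 of 27. Muc2, the mucin of goblet cells, stood at 697, 806 and 762 CPM in SI and 380, 344, 239 and 18.01 CPM in thymic tuft libraries and was not called (adjusted p = 0.0771), library 4 standing below the others. Defa24, a Paneth cell defensin with near copies in its family, stood at 93.3, 25.2 and 83.0 CPM against 46.3, 26.9, 18.4 and 0.598 CPM. These were chosen after their values were seen.

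Some secretory genes were high in library 4 too. Fcgbp, a mucus protein, stood at 412, 551 and 649 CPM in SI and 1991, 1860, 1876 and 1647 CPM in thymic tuft libraries (log2 fold change 1.78, SE 0.18, adjusted p = 2.98e-05), and it was 1.66 with the share subtracted and 1.63 with library 4 alone. Lyz1, the Paneth cell lysozyme, stood at 124, 47.3 and 227 CPM against 218, 136, 260 and 148 CPM and was not called. Nupr1, a stress-response regulator, rose from 2.19 to 75.7 CPM and was 69.7 CPM in library 4, and Insm1, a factor of endocrine cells, rose from 0.422 to 27.5 CPM and was 25.9 CPM there. Sct, secretin, fell from 196 to 17.7 CPM with 19.6 CPM in library 4.

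**Figure D4:**
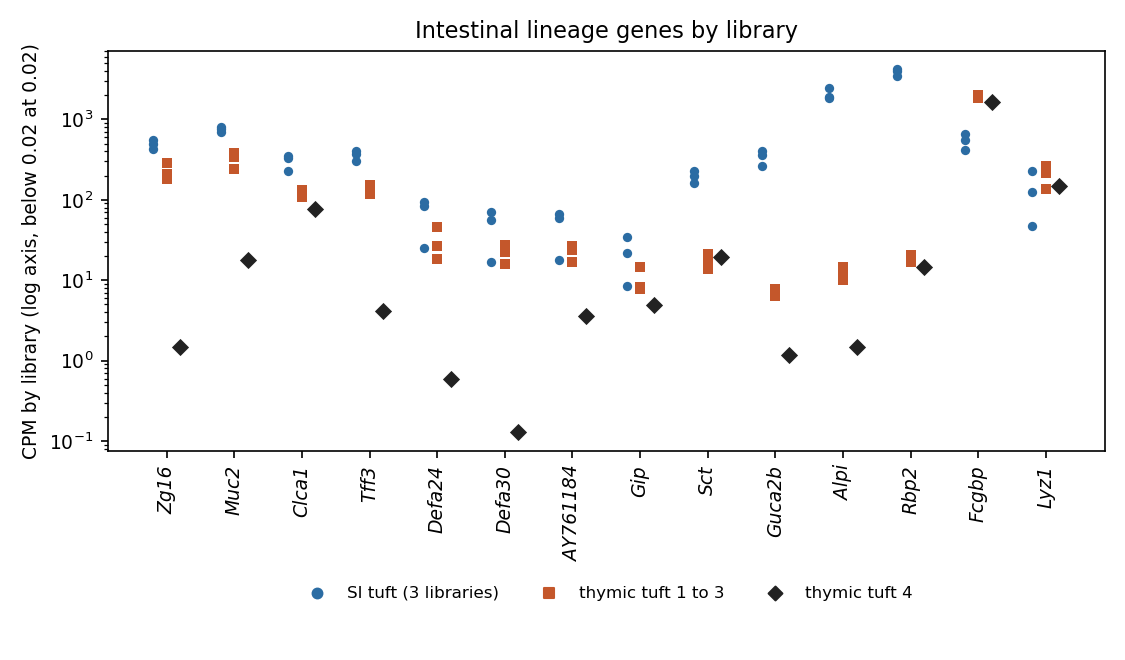
CPM in each library (log axis) of 14 genes of intestinal lineages, with SI tuft libraries as circles, thymic libraries 1 to 3 as squares and thymic library 4 as a diamond. For genes such as Zg16, Muc2, Tff3 and the defensins library 4 lies far under the other thymic libraries, while for Fcgbp, Lyz1 and Sct it lies with them.

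Mitochondrial RNA took a smaller part of the thymic libraries. Mitochondrially encoded RNA made up 33.5%, 24.1% and 27.0% of the counts of SI tuft libraries and 5.24%, 4.38%, 5.31% and 5.97% of those of thymic libraries. The means were 28.2% ± 4.86 (SD, n = 3) and 5.22% ± 0.652 (SD, n = 4), a difference of -23.0 percentage points without overlap, with a two-sided exact permutation p of 0.0571, the smallest that the 35 splits of 7 libraries allow. Nuclear genes of the respiratory chain were lower as well, 67 of 79 with none higher and a median of -1.49. Atp5b, a subunit of ATP synthase, stood at 2846, 1549 and 2053 CPM in SI and 593, 691, 717 and 776 CPM in thymic tuft libraries (log2 fold change -1.63, SE 0.20). Of ribosomal protein genes 21 of 81 were lower and 1 higher, with a median of -0.59, and most of them have processed copies elsewhere in the genome. Cell isolation and amplification from few cells differed between the groups, and their part was not tested.

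Cell cycle genes were lower in the thymus. Of 30 tested 22 were lower and none higher, with a median of -2.56. Mki67, the usual marker of cycling cells, stood at 303, 232 and 171 CPM in SI and 49.6, 24.9, 23.9 and 25.4 CPM in thymic tuft libraries (log2 fold change -2.93, SE 0.31, adjusted p = 4.17e-05), against 869 CPM in Flare25- SI epithelium. Of 18 intestinal stem cell genes 6 were lower and 2 higher, also with the share subtracted, and 4 and 4 with library 4 alone. Lgr5, the receptor of intestinal stem cells, fell from 59.9 to 2.80 CPM and Hopx from 246 to 21.3 CPM. Cd44, a surface adhesion protein of stem cells and many others, rose from 12.9 to 280 CPM, and Ascl2, a stem cell and tuft progenitor factor, stood at 8.46 and 8.80 CPM.

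Stress and immediate early genes were higher in part: 14 of 26 were higher and 1 lower, with a median of 0.81. Dnajb1, a heat-shock cochaperone, stood at 292, 196 and 208 CPM in SI and 902, 881, 1060 and 779 CPM in thymic tuft libraries (log2 fold change 1.96, SE 0.19). Hspb1, a small heat-shock protein, rose from 1.26 to 70.9 CPM and Egr3 from 3.61 to 138 CPM. Fos stood at 332 and 276 CPM, Jun at 1117 and 999 CPM and Egr1 at 1593 and 1902 CPM, none of them called.

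Signalling families outside the tuft cell lists also differed. Notch2 stood at 15.7, 15.1 and 7.39 CPM in SI and 167, 173, 171 and 187 CPM in thymic tuft libraries (log2 fold change 3.78, SE 0.29), and its ligand Jag1 rose from 7.30 to 66.5 CPM while Dll1, another ligand, fell from 29.2 to 3.83 CPM. Of 23 Notch pathway genes 14 were higher and 2 lower, and past the minimum in both groups 7 and 2 of 15. Among Wnt genes Sfrp1, a secreted antagonist, stood at 150, 126, 168 and 182 CPM in the thymus and 0.244, 0 and 0 CPM in the SI, and 18 of 36 were higher and 2 lower, and past the minimum in both groups 7 and 2 of 17. Of collagens, Col15a1, of basement membranes, was a gene of SI tuft cells, with 509, 542 and 405 CPM against 12.1, 22.3, 16.1 and 16.2 CPM and a mean of 3.95 CPM in Flare25- SI epithelium. Col27a1 rose from 0.751 to 57.4 CPM, and 27 of 38 collagens were higher, 30 of the 38 having passed through thymic libraries alone.

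Markers of other cells are given as measured, and the sums below were higher in thymic libraries. T cell and thymocyte markers summed to 44.7 to 59.7 CPM in SI and 75.5 to 131 CPM in thymic tuft libraries. Tcf7, 1 of these markers, stood at 4.23, 7.80 and 5.23 CPM in SI and 28.6, 54.1, 33.5 and 89.2 CPM in thymic tuft libraries. It was most of the sums of thymic libraries 2 (75.5 CPM) and 4 (131 CPM), so the gap between the groups in this sum leans on that gene. As single genes the markers leaned little, with 4 of 20 higher, 1 lower and 15 not called, against 29.1% higher over all genes. Past the minimum in both groups 1 was higher and 1 lower of 8. Cd3e, of the T cell receptor complex, fell from 11.6 to 1.80 CPM, a call kept without thymic library 3 and lost without any 1 of the other libraries, and Cd4 stood at 0.524 and 6.30 CPM. B cell markers summed to 4.31 to 7.73 CPM against 152 to 211 CPM, with 6 of 8 higher, but 6 of the 8 passed through thymic libraries alone. Most of that sum was Ighm, the mu heavy chain, at 69.1, 88.6, 62.6 and 93.2 CPM in the thymus, Fcer2a at 29.3 to 71.2 CPM and Cd79b at 15.5 to 37.4 CPM, while Ms4a1 and Cd79a did not reach the minimum. Myeloid markers summed to 26.8 to 60.5 CPM against 273 to 326 CPM, with Lyz2 at 185 to 236 CPM in the thymus. Fibroblast and endothelial markers summed to 4.89 to 5.45 CPM against 174 to 395 CPM, with Fn1, fibronectin, at 112 to 192 CPM. Of the 12 tested, 10 passed through thymic libraries alone. The part of such cells in the immune genes above was not tested.

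**Figure D5:**
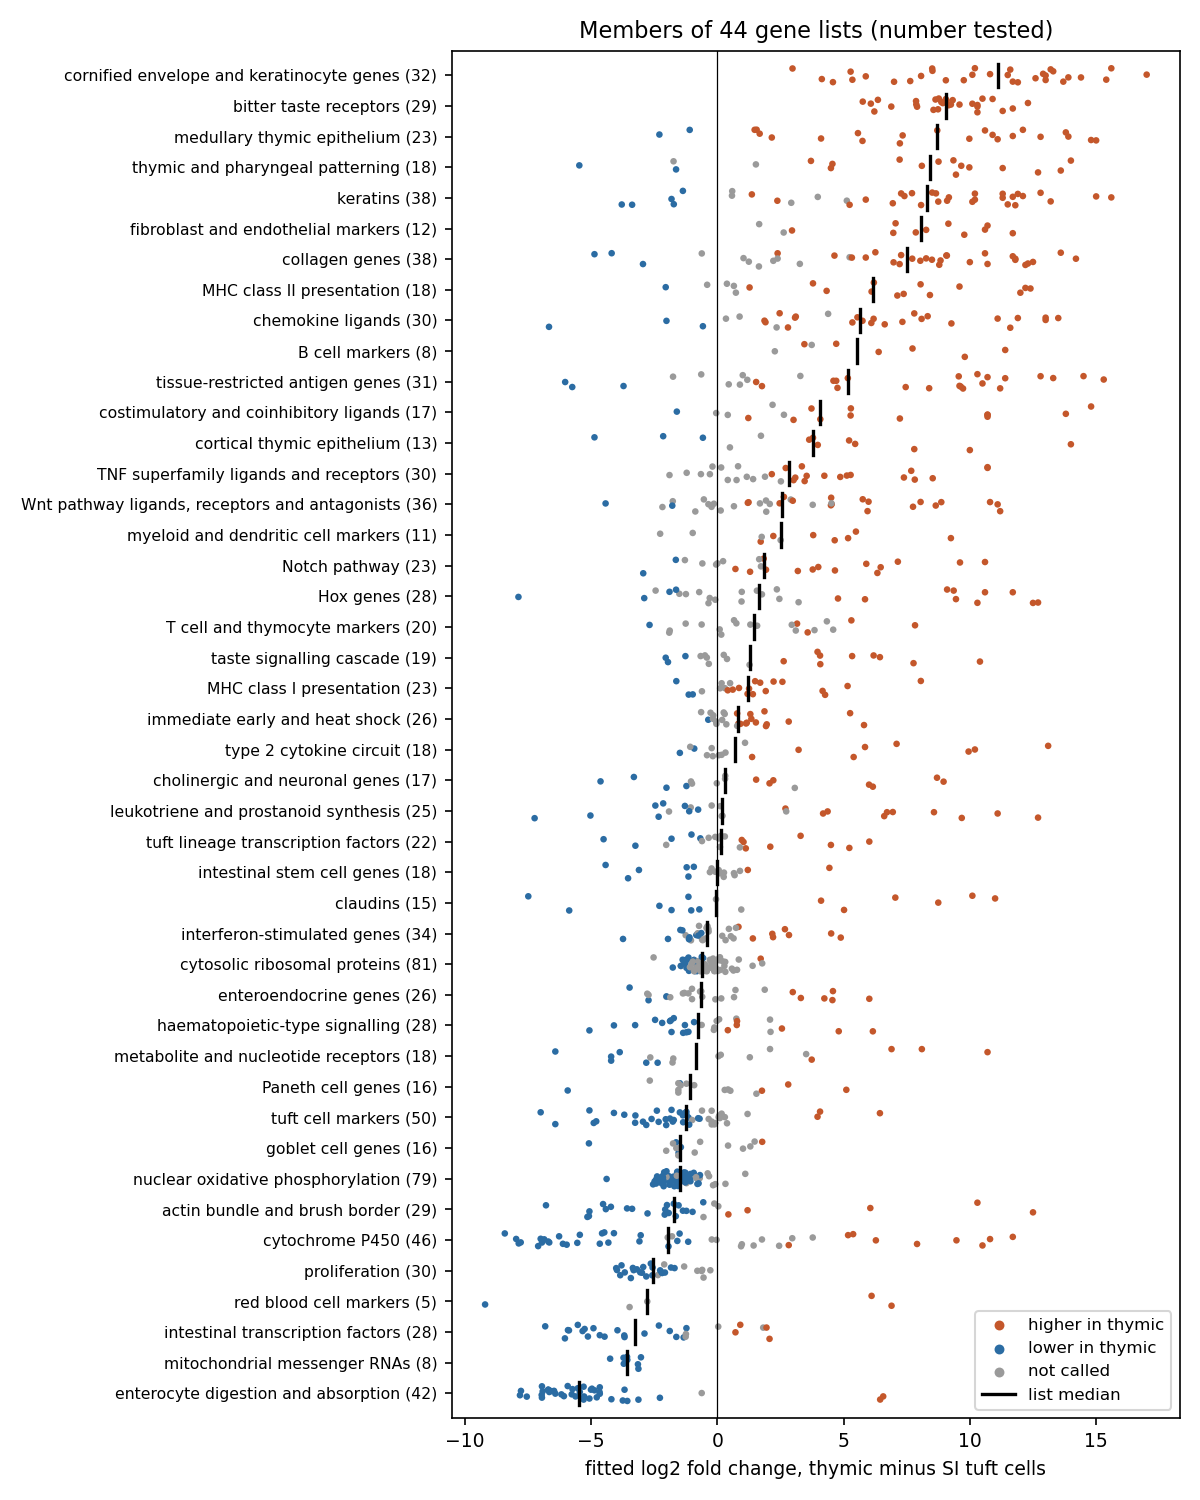
Fitted log2 fold change of each tested member (points) of 44 gene lists, ordered by the list median (bars), with colours for higher, lower and not called genes. Enterocyte, mitochondrial and intestinal factor lists lie at the bottom and keratinocyte, bitter receptor and medullary lists at the top, where values above about 10 belong to genes at or near 0 in SI tuft cells and depend on the fit.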

How the data were processed

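RNA sequencing of sorted cells gave 1 table of counts per gene, deposited by the authors as raw counts. Poly(A) RNA was amplified with the NuGEN Ovation system and made into Nextera XT libraries, per the labels' protocols. STAR, DESeq2 and GRCm38 are named in the submitters' processing notes, and their versions are not given in the sources used here. Of 43432 identifiers, 42548 were found in GENCODE M21 and 884 were not. Groups follow the sample titles.

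The 7 libraries were fitted with edgeR 4.0.16 in R 4.3.3 (TMM scaling, filterByExpr with a minimum count of 10, glmQLFit and glmQLFTest), with Benjamini-Hochberg adjustment over all tested genes. The mitochondrial share was tested by an exact permutation test. The fit was also run on simulated counts in which only a small set of well expressed genes changed, in both directions. In the data 46.4% of the tested genes were called, so that run does not test the scaling under so many changes. Each library is 1 mouse, and p-values measure the spread between these samples.

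Alternatives were DESeq2 1.42.0 (scaling and Wald test), upper quartile scaling, other filters, mitochondrial genes removed, a robust fit, a minimum change of 2-fold, all 10 libraries, a replicate block, thinning, subtraction of the epithelial share and leaving out each library. A fit of thymic library 4 alone was added after the data were seen, and in it that library is assumed to vary like the SI tuft libraries. The biological coefficient of variation between libraries was in fact larger in the thymic group, at 0.735 against 0.46. Calls from that fit are therefore less sure than those of the main fit.

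Named genes are 33 fixed genes, the 12 largest changes each way at 50 CPM or more, up to 3 members each way per list at 10 CPM or more, 8 tuft markers and 8 other genes with intervals within 1 log2 unit, and genes read in 1 group alone. List members outside this rule were chosen after their values were seen. The comparison and the 44 lists were chosen with earlier results of these data known.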

Additional observations from a re-analysis of the deposited data

Results flagged for a closer look

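Of 262 values examined, 22 (8.4%) had 1 thymic library standing apart from the other thymic libraries by Dixon's test for 4 samples, where chance gives about 1 in 20. Of these, 7 were in library 4. Over all tested genes it was 1893 of 18224 (10.4%), 622 of them in library 4.

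In library 4, Aire stood at 177.6 CPM (264.4 to 277.2 in the others) and Fezf2 at 269 CPM (325.9 to 333). Ehf stood at 860.2 CPM (734.7 to 752.9), Cd274 at 562.6 CPM (362.4 to 385.1) and Cd44 at 334.6 CPM (254.6 to 266.8). Dll1 stood at 5.748 CPM (3.018 to 3.273) and Ube2c, a cell cycle gene, at 55.99 CPM (5.21 to 13.08).

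In library 1, Ltc4s stood at 15.97 CPM (31.61 to 34.06 in the others), H2-Ab1 at 1612 CPM (2075 to 2147) and Cldn7 at 67.7 CPM (118.1 to 122.9). Muc13 stood there at 213.1 CPM (152.9 to 162), Isl1 at 34.1 CPM (9.634 to 13.11) and Mki67 at 49.59 CPM (23.85 to 25.41).

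In library 2, Tas1r3 stood at 187.4 CPM (114.6 to 120 in the others), Bche at 55.16 CPM (25.25 to 29.57) and Psme2 at 52.74 CPM (36.41 to 38.39). Irf4 stood there at 99.15 CPM (109.6 to 111.3) and Ccl28 at 3.514 CPM (5.919 to 6.292).

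In library 3, Ccl22 stood at 593 CPM (174.2 to 218 in the others), Csn2 at 540.1 CPM (417.7 to 438.2), Ptgs1 at 429.7 CPM (513.7 to 522.5) and Cd3e at 5.254 CPM (0.4183 to 0.8269).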

How the results depend on the processing

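In none of the 20 alternatives run was a called gene called in the other direction. The count of higher genes moved to 3203 with a filter of 10 CPM in 3 libraries, which tests 10240 genes, and that of lower genes to 1636 with a minimum change of 2-fold. The other alternatives kept both counts within 1.5 times. Leaving out 1 library gave 4069 to 5187 higher and 2350 to 3221 lower genes, and a difference in the mitochondrially encoded share of counts of -20.29 to -25.04 percentage points. DESeq2 called 6034 higher and 3202 lower. With DESeq2 size factors the median of all genes was 0.36, against 0.27.

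With the replicate number as a block, 4050 genes were higher and 2552 lower over 6 libraries, against 4608 and 2826 in those libraries without it. Deviations of same-numbered samples correlated at -0.013, 0.025 and -0.051 over 9293 genes. With so few libraries these values cannot show whether same-numbered samples share a mouse or a sort day. The sample titles give only the number, and the pairing is not used.

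With 3 and 4 mice, small changes and low genes are the limit: a gene at 0 in an SI tuft library can hold up to 0.0733 to 0.0799 CPM (3 counts, counting error only).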
